A study of Mus musculus with 2 samples.

Results

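Genes of the axonal skeleton and of axon growth, 10 of the 23392 in the ganglion count table, were followed through single neurons of the mouse geniculate ganglion. They are Nefl, Nefm and Nefh (the light, medium and heavy neurofilament chains), Prph (peripherin), Gap43 and Basp1 (growth-associated membrane proteins), Stmn2 and Stmn3 (stathmins), Tubb3 (a neuronal beta-tubulin) and Uchl1 (a ubiquitin hydrolase of neurons). The genes were chosen by name, and the cells by depth: the 371 of 454 picked neurons with at least 2000 genes detected. The neurons came from P2rx3-tdTomato mice of the C57BL/6 strain and were picked by hand under a fluorescence microscope because they were tdTomato-positive. A P2rx3 read was present in every one of the 371 cells, so neurons that lack P2rx3, a subunit of the ATP receptor through which taste cells signal to nerve fibres, are not represented. Libraries were made by CEL-Seq, which tags RNA at its 3′ end, in 8 experiments that the column names call JC04, JC05 and JC07 to JC12. The labels give no age, and do not say whether an experiment was 1 animal or several. For comparison, the series holds sour taste cells sorted from tongues of Pkd2l1-tdTomato mice of the same strain, made with another kit (SMART-Seq).

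Neurofilaments are polymers of light, medium and heavy chains that fill large axons and set their diameter, and the heavy chain is a common label for thick, myelinated sensory neurons. Gap43 and Basp1 lie under the membrane of growth cones, bind calmodulin and acidic lipids, and are high in growing, regenerating and plastic axons. In the geniculate ganglion, taste neurons express P2X receptors, and a separate class of somatosensory neurons serves the outer ear. Piezo2 is the channel through which touch neurons are opened by force. The comparison therefore asks whether neurons rich in Nefh and neurons rich in Gap43 are opposite groups, and where Piezo2 and P2rx3 stand.

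The kept cells had 9299 to 12716808 gene reads (median 1091180) and a median of 4882 genes; 17 to 63 cells were kept per experiment. Neuronal markers were present in nearly all of them, with Snap25 (a synaptic release protein) read in 100% and Elavl4 (a neuronal RNA-binding protein) in 99.7%. Markers of satellite glia and Schwann cells were also read, and Ptprc, a marker of immune cells, was read in 1.89%. Levels are given in CPM, a gene's reads scaled to the total gene reads of the cell. The counts are reads, not unique molecules.

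Of the 10 genes, 5 have an entry in the RefSeq promoter table: Basp1, Prph, Tubb3, Stmn3 and Uchl1. Those of Basp1 and Prph are shown because Basp1 was the gene of the group that went with Gap43 and P2rx3, and Prph is an intermediate filament gene of the same chromosome that did not. Each is the 250 bases before the RefSeq start of the gene in GRCm38.p6, read 5′ to 3′ on the gene's own strand. Capitals mark GGGCGG (the GC box, bound by Sp1-like factors) on either strand and TATAAA (the TATA box).
Basp1 (chr15:25413765-25414014, minus strand): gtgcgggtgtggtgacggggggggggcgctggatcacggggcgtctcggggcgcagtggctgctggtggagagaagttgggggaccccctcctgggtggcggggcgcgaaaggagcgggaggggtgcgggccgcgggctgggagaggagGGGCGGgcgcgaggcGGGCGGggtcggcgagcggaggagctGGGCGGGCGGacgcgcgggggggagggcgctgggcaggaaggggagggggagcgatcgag
Prph (chr15:99054924-99055173, plus strand): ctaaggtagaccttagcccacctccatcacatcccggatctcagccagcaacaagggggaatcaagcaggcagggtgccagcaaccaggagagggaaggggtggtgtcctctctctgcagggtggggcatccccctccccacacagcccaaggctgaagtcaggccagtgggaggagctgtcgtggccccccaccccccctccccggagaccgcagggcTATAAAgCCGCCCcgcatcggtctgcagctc
The Basp1 stretch was 78.8% G and C and held 4 GC boxes, of which the last 2 overlap, and no TATA box. The Prph stretch was 65.2% G and C and held 1 TATA box and 1 GC box on the other strand. Over 32851 promoters of that length the median was 52.4% G and C, 32.7% held a GC box and 12.4% a TATA box. These matches are letters in a window and were not tested as binding sites.

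All 10 genes were read at substantial levels in every experiment. Gap43, Basp1 and, less so, Nefh differed most on average between neurons of the same experiment. Gap43 had a within-experiment SD of 2.64 on the log2(CPM + 10) scale and Basp1 one of 2.04 (means of 8 experiments), against 1.56 for Nefh. The SDs of the other 7 lay between 0.73 for Uchl1 and 1.05 for Nefm. Mean levels over the cells of an experiment ran, from the lowest through the median to the highest experiment, from 1030 through 1446 to 1862 CPM for Gap43, from 524 through 640.8 to 985 CPM for Basp1 and from 587 through 749.98 to 862 CPM for Nefh. For Gap43 the experiments differed more in their medians, which ran from 181 CPM in JC08 to 1589 CPM in JC10. Gap43 was under 100 CPM in 86 of the 371 cells (23.2%), between 100 and 500 CPM in 60 and above 500 CPM in 225. The share of cells under 100 CPM was 7.94% in JC10 and 38.1% in JC08, the lowest and highest of the 8 experiments. The median of Nefh was 558 CPM in the cells above 500 CPM of Gap43 and 715 CPM in the cells under 100 CPM, lower in the Gap43-rich cells in every experiment except JC10 (637 against 144 CPM).

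**Figure D1:**
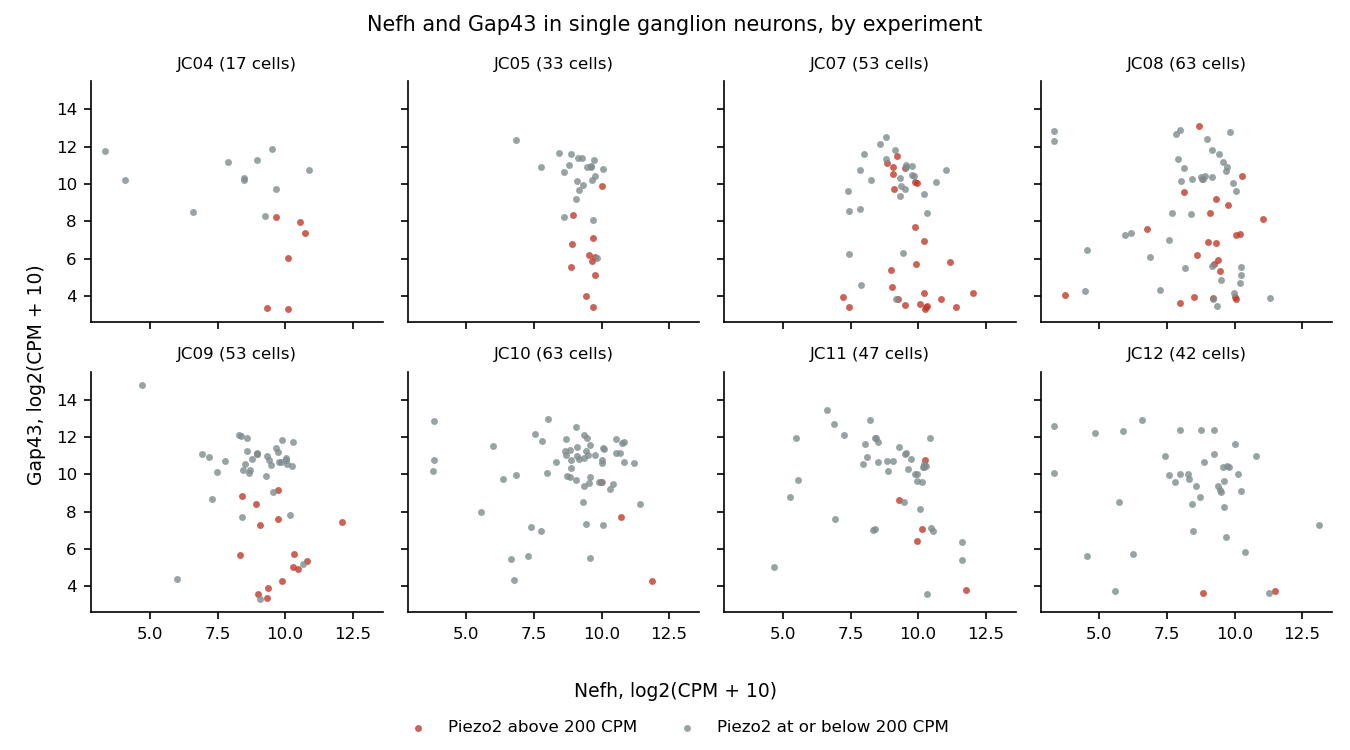
Nefh against Gap43 in the 371 neurons, 1 panel per experiment, both as log2(CPM + 10); each point is 1 cell, red where Piezo2 was above 200 CPM. Cells spread over the whole Gap43 axis at like levels of Nefh, and most red cells lie low on the Gap43 axis in JC04 to JC09, while JC10 to JC12 hold few red cells.

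To compare neurons, the cells of each experiment were cut at the tertiles of a gene's CPM, its top and bottom tertile being called high and low, their reads were summed per experiment, and the sums of 8 experiments were compared as pairs with edgeR's quasi-likelihood test over all genes. The gene that made the split has no test. The 4 splits, by Nefh, Gap43, Piezo2 and P2rx3, use the same cells, so their results are not independent of each other.

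Neurons rich in Nefh held less Gap43 than neurons poor in Nefh in 8 of 8 experiments. The lowest, median and highest sums were 123.1, 790.4 and 2246 CPM in Nefh-high cells, against 1602, 2536 and 3190 CPM in Nefh-low cells. The ranges overlap through JC10 alone, where Gap43 was 2246 CPM in Nefh-high and 2540 CPM in Nefh-low cells; in JC05 it was 123.1 CPM in Nefh-high and 2904 CPM in Nefh-low cells. The fitted log2 change was -1.77 (SE 0.36). It did not pass the threshold, with an adjusted p of 0.28 (edgeR quasi-likelihood, Benjamini-Hochberg), and it passed in DESeq2 with an adjusted p of 1.2e-05.

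That split as a whole called no gene. Of 10518 genes tested, edgeR called 0 (0%), 648 (6.16%) had an unadjusted p under 0.05, and DESeq2 called 409 (3.89%). In simulated data of the same design edgeR recovered 17% of 100 genes changed 4-fold and 1% of 100 changed 2-fold. The count of 0 therefore says little about changes of either size. When every cell was thinned to 50000 reads, which gives cells the same weight and left 116 Nefh-high and 127 Nefh-low cells, edgeR called 1 of 6728 genes, and that gene was Gap43 (log2 change -1.35, adjusted p = 0.0033).

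The other members split into those that followed Gap43, those that leaned toward Nefh and those that stayed near 0. Basp1, which like Gap43 is a calmodulin-binding protein of growth cones, had 96.4, 544.7 and 1095 CPM in Nefh-high cells (lowest, median, highest), against 655, 901.3 and 1163 CPM in Nefh-low cells. It was lower in 6 of 8 experiments, with a log2 change of -1.03 (SE 0.34) and an adjusted p of 0.58 in edgeR and 0.031 in DESeq2. Nefm, the medium chain that assembles with Nefh, had 5711, 6874 and 11392 CPM in Nefh-high cells, against 4028, 5361 and 8032 CPM in Nefh-low cells, higher in 8 of 8 experiments (log2 change 0.36, SE 0.097, adjusted p = 0.44, edgeR). Tubb3 was also higher in 8 of 8 experiments, with 805, 1008 and 1310 CPM in Nefh-high cells and 489, 854 and 1092 CPM in Nefh-low cells (log2 change 0.36, SE 0.14, adjusted p = 0.69, edgeR). Neither passed the test in either tool. The log2 changes of Nefl, Prph, Stmn2, Stmn3 and Uchl1 lay between -0.06 and 0.19, and each of these genes was higher in 4 to 7 of the 8 experiments. Nefl, the light chain, is the one on which the others assemble, and its sums were 2324 to 4491 CPM in Nefh-high and 2744 to 4224 CPM in Nefh-low cells. In the GENCODE M21 annotation Nefl lies inside the span of Nefm on the opposite strand (chromosome 14, GRCm38), and the strand used for counting is not given in the sources used here, so reads of the 2 genes may be mixed.

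**Figure D2:**
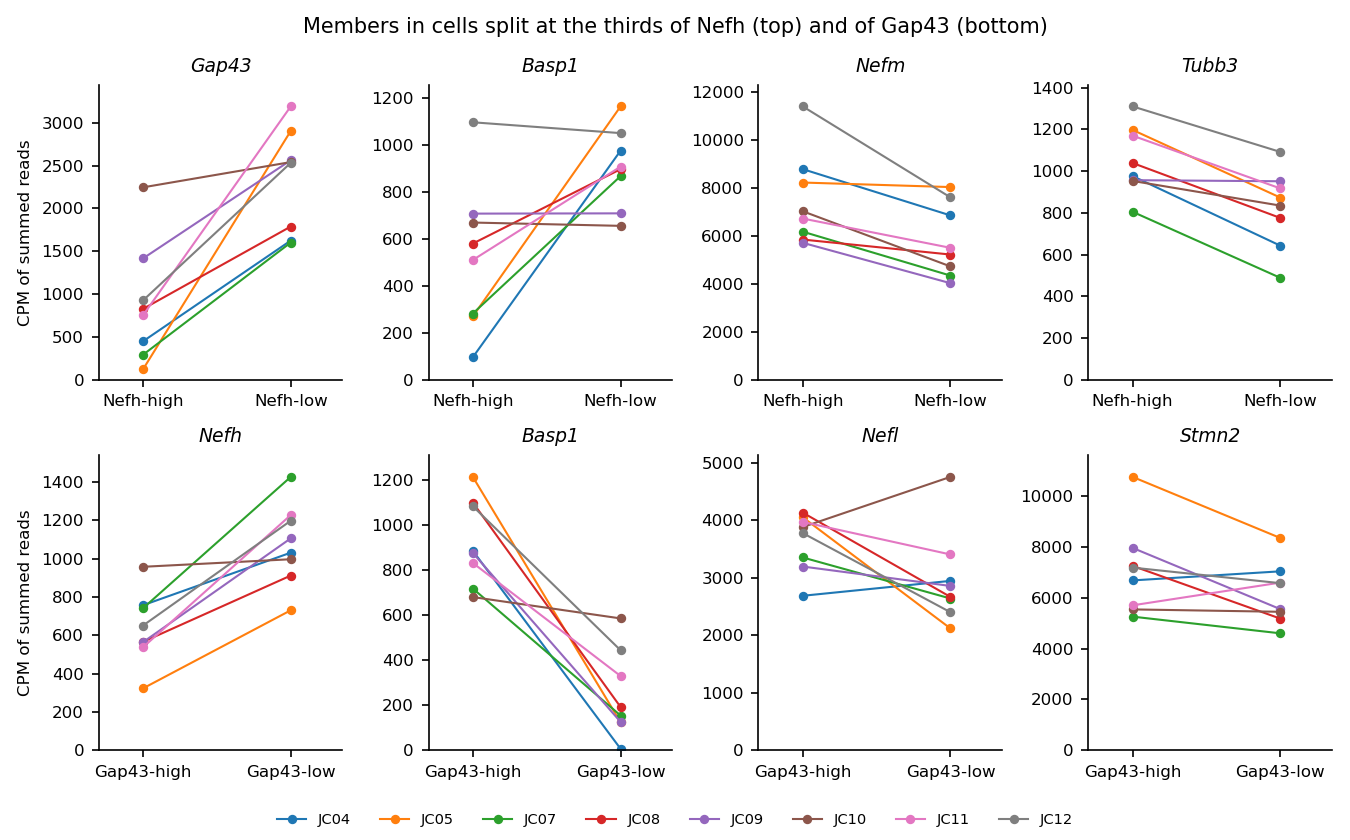
CPM of summed reads in the high and the low tertile of cells of each experiment, split by Nefh (top row) and by Gap43 (bottom row); each line joins the 2 sums of 1 experiment. All 8 lines of Gap43 climb toward Nefh-low cells and all 8 of Nefh toward Gap43-low cells, and Basp1 falls in all 8 toward Gap43-low cells.

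Seen from Gap43, the opposition passed the test. Nefh had 323, 608.5 and 957 CPM in Gap43-high cells (lowest, median, highest of 8 sums), against 731, 1069 and 1426 CPM in Gap43-low cells. It was lower in Gap43-high cells in 8 of 8 experiments, least in JC10 with 957 CPM in Gap43-high and 997 CPM in Gap43-low cells, and the ranges of the groups overlap. Nefh fell by 0.88 on the log2 scale (SE 0.15; adjusted p = 0.036, edgeR quasi-likelihood, Benjamini-Hochberg). Of 10554 genes tested 31 were called (0.294%), 9 higher (0.0853%) and 22 lower (0.208%) in Gap43-high cells, and DESeq2 called 1044 (9.89%). Of the 9 other members, Nefh was the 1 called. The call was fragile: without JC10 the adjusted p was 0.012, and leaving out any 1 of the other 7 experiments gave 0.055 to 0.13 with a log2 change of -0.91 to -0.83.

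Basp1 was higher in Gap43-high cells in 8 of 8 experiments. Its sums were 681, 882 and 1215 CPM in Gap43-high cells, against 7.04, 174 and 586 CPM in Gap43-low cells, and the ranges did not overlap, which held for 35 of the 10554 genes (0.332%). JC04 differed most, with 887 CPM in Gap43-high and 7.04 CPM in Gap43-low cells, and JC10 least, with 681 and 586 CPM. The log2 change was 2.30 (SE 0.56), with an adjusted p of 0.10 in edgeR and 1.1e-05 in DESeq2. None of the remaining 7 members passed in either tool: their log2 changes were between -0.21 for Nefm and 0.23 for Nefl. Uchl1 and Tubb3, which mark neurons in general, were at -0.07 and -0.11. Stmn2, which binds tubulin dimers in growth cones and is often high in regenerating axons, was at 0.10 (SE 0.099), with 5252, 6925 and 10738 CPM in Gap43-high cells, against 4597, 6056 and 8340 CPM in Gap43-low cells.

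In single neurons the high tertiles of Nefh and Gap43 overlapped in part, and whether the cells form separate classes was not tested. Of 125 Nefh-high cells, 27 were also in the top tertile of Gap43 and 62 in the bottom tertile; of 125 Nefh-low cells, 51 were in the top and 30 in the bottom tertile of Gap43. Averaged over experiments, 20.3% ± 10.6 of Nefh-high cells were Gap43-high, against 42.5% ± 8.86 of Nefh-low cells (SD, n = 8 experiments). The share was lower in Nefh-high cells in 6 experiments and equal in JC08 and JC10, and the mean difference of -22.2 percentage points had a p of 0.031 and an adjusted p of 0.037 over 6 comparisons (exact sign-change permutation test, two-sided; the smallest p it can give is 0.0078). Without JC08 or JC10 the adjusted p was 0.047, and without any 1 of the other 6 it was 0.075. Over single cells within an experiment the rank correlation of Nefh and Gap43 was weak, with a mean Spearman's rho of -0.28 over 8 experiments (371 cells that share libraries and differ in depth). It was below 0 in all 8, from -0.50 to -0.02.

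Few genes were as unlike Nefh. Among the 4256 genes read in at least 50% of cells, Gap43 ranked last in mean rho with Nefh and Basp1 ranked 4251. The 5 most like Nefh were Lhfpl4 (a partner of inhibitory synapse receptors, rho 0.35), Prune2, Adam11, Cbx6 and Cpne6 (rho 0.32), while Nefm ranked 82, Tubb3 271 and Nefl 1816. The 5 most like Gap43 were Celf4 (an RNA-binding protein of neurons, rho 0.54), Basp1 (0.48), Rspo2 (a Wnt signal enhancer, 0.48), Atp2b4 (a calcium pump, 0.47) and Negr1 (an adhesion molecule, 0.47). P2rx3 ranked 19 and Piezo2 4253 in likeness to Gap43. These ranks describe the 371 cells and carry no test.

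**Figure D3:**
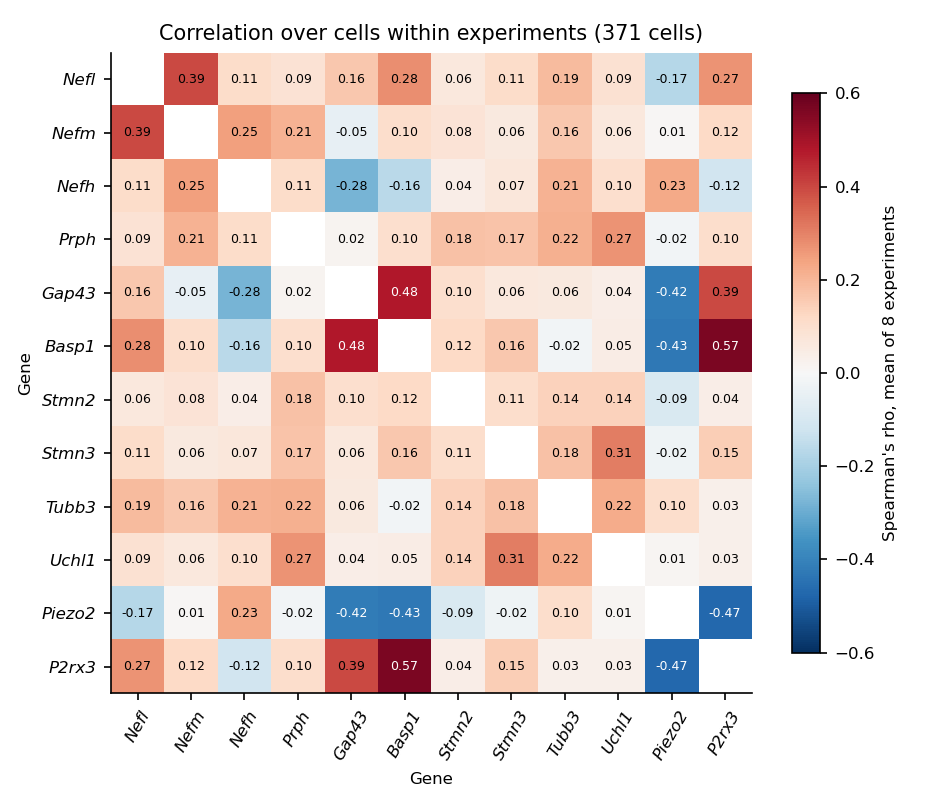
Mean of the 8 within-experiment Spearman correlations over cells (371 cells) for each pair of the 10 genes, Piezo2 and P2rx3. Gap43, Basp1 and P2rx3 form a block of rho 0.39 to 0.57, Piezo2 is at -0.42 to -0.47 with each of the 3, and Nefl and Nefm pair at 0.39.

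Piezo2 went with Nefh and against Gap43 and Basp1. In Nefh-high cells it had 128, 385.2 and 459 CPM (lowest, median, highest sum), against 3.25, 42.7 and 276 CPM in Nefh-low cells. It was higher in 8 of 8 experiments, on the log2 scale by least in JC07 (408 CPM in Nefh-high, 276 CPM in Nefh-low cells) and by most in JC04 (385 CPM in Nefh-high, 4.74 CPM in Nefh-low cells), with a log2 change of 2.91 (SE 0.73) that passed in DESeq2 (adjusted p = 8.9e-06) and not in edgeR (adjusted p = 0.44). Of Nefh-high cells 48.8% ± 16.0 were in the top tertile of Piezo2, against 20.2% ± 10.3 of Nefh-low cells (SD, n = 8), a difference in the same direction in 8 of 8 experiments (exact permutation p = 0.0078, the smallest possible; adjusted p = 0.023). In JC10 and JC12 the 18 and 10 cells called Piezo2-high were all those with any Piezo2 read, and in JC11 they were 16 of the 18, so there the share compares cells with a read and cells with few or none. Piezo2 had a mean rank correlation of 0.28 with the number of genes detected. With every cell thinned to 50000 reads, 40.8% ± 18.5 of Nefh-high cells were Piezo2-high, against 12.7% ± 7.54 of Nefh-low cells (SD, n = 8; higher in 8 of 8; exact permutation p = 0.0078, adjusted p = 0.012).

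In the reverse split, Nefh had 730, 1020 and 1223 CPM in Piezo2-high cells, against 312, 681.4 and 779 CPM in Piezo2-low cells, and was higher in 8 of 8 experiments. Nefh rose by 0.73 on the log2 scale (SE 0.14; adjusted p = 0.039, edgeR), 1 of 59 genes called among 10861 (0.543%; 0.405% higher and 0.138% lower in Piezo2-high cells; DESeq2 called 9.76%). Leaving out JC10 or JC12 gave 0.046, and leaving out any 1 of the other 6 gave 0.058 to 0.095. Gap43 had 14.4, 550.5 and 2302 CPM in Piezo2-high cells, against 1773, 2045 and 2910 CPM in Piezo2-low cells, lower in 7 of 8 experiments (log2 change -2.41, SE 0.66; adjusted p = 0.13 in edgeR and 0.0056 in DESeq2). Basp1 had 7.04, 276.6 and 1086 CPM in Piezo2-high cells, against 730.5, 1041 and 1215 CPM in Piezo2-low cells (log2 change -2.04, SE 0.61; adjusted p = 0.18 in edgeR and 0.018 in DESeq2). The other 7 members had log2 changes of -0.28 to 0.22 and passed in neither tool.

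Piezo2 was not read in most cells of 3 experiments. In JC10, JC11 and JC12 the bottom tertile ended at 0, so 45, 29 and 32 cells counted as Piezo2-low, and the share of cells above 200 CPM was 4.76%, 10.6% and 4.76%, against 28.3% to 49.1% in JC04 to JC09. With fixed levels in place of tertiles (above 200 CPM, 90 cells; under 20 CPM, 237 cells), a choice made after the values were seen, the log2 changes were 0.84 for Nefh, -3.43 for Gap43 and -3.17 for Basp1, with adjusted p-values of 0.011, 0.018 and 0.012 (edgeR).

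Piezo2 was less often high in neurons rich in Gap43 in these experiments, by an amount that varied between them. Of the 225 cells with more than 500 CPM of Gap43, 7.11% had more than 200 CPM of Piezo2, against 58.1% of the 86 cells with under 100 CPM. These pooled shares mix experiments: JC10, JC11 and JC12, where few cells had Piezo2, gave 50, 31 and 28 of the Gap43-rich cells, and JC07 gave 8 of the 16 that were above 200 CPM. Within JC07 the shares were 28.6% of Gap43-rich and 80% of Gap43-poor cells, within JC08 15.4% and 41.7%, and within JC10 2% and 20%, and the share was lower in Gap43-rich cells in each of the 8 experiments, some with as few as 3 Gap43-poor cells. Among Nefh-high cells Piezo2 was above 200 CPM in 7.41% of the 27 that were high in Gap43 and in 56.5% of the 62 that were low in Gap43. Among Nefh-low cells it was above 200 CPM in 5.88% of the 51 that were high in Gap43 and in 30% of the 30 that were low in Gap43. Of Gap43-high cells 9.90% ± 11.4 were Piezo2-high, against 59.8% ± 24.8 of Gap43-low cells (SD, n = 8; lower in 7 of 8 experiments, higher in JC10; exact permutation p = 0.016, adjusted p = 0.031; without JC08, JC10 or JC11 still at most 0.047, and 0.062 without any 1 of the others). The sums of Piezo2 were 0.12, 11.3 and 458 CPM in Gap43-high cells, against 249, 467 and 562 CPM in Gap43-low cells, nearly level in JC07 (458 CPM in Gap43-high and 480 CPM in Gap43-low cells) and with a log2 change of -5.11 (SE 1.16; adjusted p = 0.079 in edgeR and 1.2e-06 in DESeq2).

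Within the 237 neurons that had under 20 CPM of Piezo2, chosen after the values were seen, Nefh and Gap43 were more weakly correlated. The difference from the other cells was not tested. The mean rho was -0.15 (from -0.67 to 0.27), below 0 in 5 experiments and above 0 in 3, and that of Gap43 with Basp1 was 0.16. Gap43 with P2rx3 had a mean rho of -0.0003 in this set, below 0 in 4 experiments and above 0 in 4, against 0.39 in all 371 cells. Basp1 with P2rx3 had 0.35 here, against 0.57 in all cells. Gap43 had a log2 change of -0.95 between Nefh-high and Nefh-low cells of this set (adjusted p = 1.0, unadjusted p = 3.2e-04, edgeR), and Nefh one of -0.58 between Gap43-high and Gap43-low cells (adjusted p = 1.0, unadjusted p = 0.068).

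**Figure D4:**
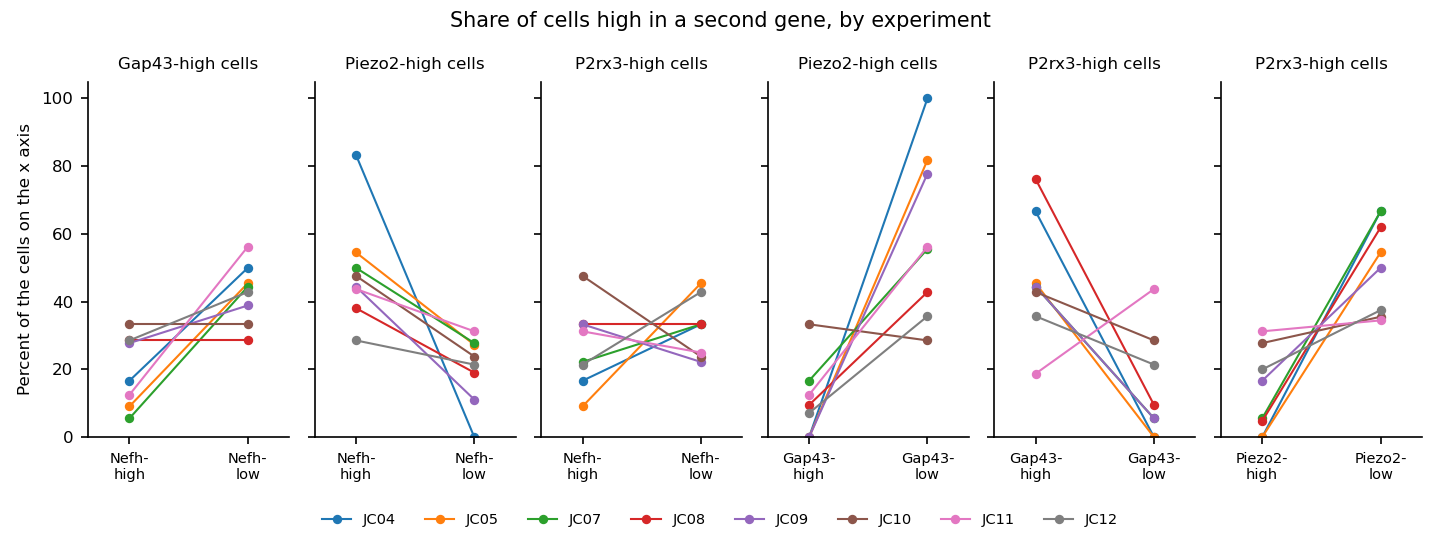
Percent of cells in the top tertile of a second gene (panel title) among the high and the low tertile of a first gene (x axis); each line is 1 of 8 experiments. The share of Piezo2-high cells is higher among Nefh-high cells in all 8, the share of P2rx3-high cells is lower among Piezo2-high cells in all 8, and the lines of P2rx3 by Nefh run both ways.

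P2rx3-high cells held more Basp1 in 8 of 8 experiments and more Gap43 in 7 of 8. Basp1 had 756, 988 and 1423 CPM in P2rx3-high cells, against 10.3, 174 and 578 CPM in P2rx3-low cells. No P2rx3-high sum was as low as any P2rx3-low sum, as for 43 of 10597 genes (0.406%), and the smallest step was in JC10 with 766 against 578 CPM. Basp1 rose by 2.34 on the log2 scale (SE 0.51; adjusted p = 0.040, edgeR), 1 of 170 genes called (1.6%; 0.566% higher and 1.04% lower in P2rx3-high cells; DESeq2 called 11.7%) and the 1 called of 10 members. Leaving out JC04, JC10 or JC12 kept it called, with adjusted p-values of 0.016, 0.021 and 0.039, and leaving out any 1 of the other 5 gave 0.054 to 0.12.

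Gap43 had 1366, 1799 and 2352 CPM in P2rx3-high cells, against 225, 633.8 and 2542 CPM in P2rx3-low cells, higher in 7 of 8 experiments (log2 change 1.21, SE 0.32; adjusted p = 0.089 in edgeR and 9.0e-04 in DESeq2). Nefl was higher in 7 of 8 (log2 change 0.38, SE 0.15, adjusted p = 0.30) and Nefh lower in 5 of 8 (-0.34, SE 0.15, adjusted p = 0.39). Piezo2 had 1.16, 17.98 and 131 CPM in P2rx3-high cells, against 140, 478 and 603 CPM in P2rx3-low cells, with no overlap, and fell by 4.62 on the log2 scale (SE 0.77, adjusted p = 0.013, edgeR; also called without any 1 experiment, at up to 0.039). As the cells were picked by a P2rx3 reporter, P2rx3-low means low among reporter-positive neurons: their lowest and highest sums were 13.2 and 1109 CPM.

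Between Nefh and P2rx3 the shares depended on the split. Of Nefh-high cells 26.9% ± 12.0 were P2rx3-high, against 32.4% ± 8.57 of Nefh-low cells (SD, n = 8; lower in 4 experiments, higher in 3, equal in JC08; exact permutation p = 0.47, adjusted p = 0.47). With a median split 43.5% ± 5.61 of Nefh-high cells were P2rx3-high, against 53.99% ± 4.47 of Nefh-low cells (SD, n = 8; lower in 6 of 8; exact permutation p = 0.039, adjusted p = 0.039). With tertiles and a minimum of 1000 genes the shares were 28.5% and 28.3% (lower in 5 of 8, exact permutation p = 0.97). The sums of P2rx3 were 168, 860 and 3277 CPM in Nefh-high cells, against 832, 1524 and 3734 CPM in Nefh-low cells, lower in 7 of 8 (log2 change -1.03, SE 0.32; adjusted p = 0.58 in edgeR and 0.019 in DESeq2). Of Gap43-high cells 46.8% ± 17.7 were P2rx3-high, against 14.3% ± 15.6 of Gap43-low cells (SD, n = 8; higher in 7 of 8, lower in JC11; exact permutation p = 0.031, adjusted p = 0.037; 0.031 without JC11 and above 0.05 without any 1 of the others). Of Piezo2-high cells 13.3% ± 12.4 were P2rx3-high, against 50.9% ± 13.7 of Piezo2-low cells (lower in 8 of 8; exact permutation p = 0.0078, adjusted p = 0.023).

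**Figure D5:**
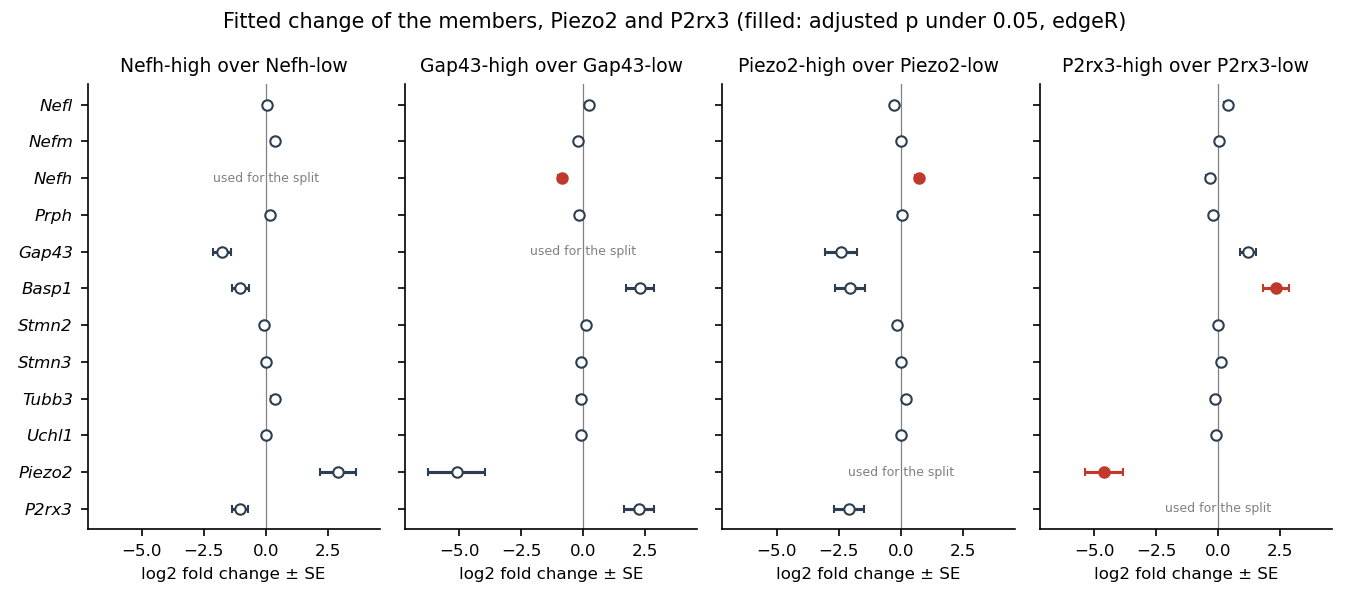
Fitted log2 fold change with its standard error (edgeR, 8 experiments) of the 10 genes, Piezo2 and P2rx3 in the 4 splits; filled red points passed at an adjusted p under 0.05. Nefh passed in the Gap43 and Piezo2 splits, Basp1 and Piezo2 in the P2rx3 split, and Nefl, Nefm, Prph, Stmn2, Stmn3, Tubb3 and Uchl1 in none.

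Nefh and Piezo2 were higher in cells with more genes detected. Nefh-high cells had a median of 1605170 reads and 5502 genes, against 734005 reads and 4411 genes in Nefh-low cells, with more genes in 8 of 8 experiments. Over cells the mean rho with the number of genes detected was 0.30 for Nefh, 0.30 for Tubb3, 0.28 for Piezo2, 0.04 for Gap43 and 0.03 for Basp1. In the cells above the median of reads in their experiment, Gap43 in Nefh-high minus Nefh-low cells differed by -1.12 ± 1.74 on the log2(CPM + 10) scale, and in the cells at or below it by -1.14 ± 1.55 (SD, n = 8; exact permutation test of the difference, adjusted p = 0.99 over 3 genes). Piezo2 differed by 1.31 ± 1.38 in the deeper and 0.87 ± 1.17 in the shallower cells (exact permutation, adjusted p = 0.82), and P2rx3 by -1.09 ± 1.47 in the deeper and -0.16 ± 0.43 in the shallower cells (exact permutation p = 0.086, adjusted p = 0.26). For Gap43 the sign differed between deeper and shallower cells in JC04 (1.38 and -3.80), JC07 (-2.29 and 0.71) and JC12 (0.98 and -0.56). It was negative in both sets in the other experiments. The sets hold few cells per experiment, and these tests do not show that the differences are alike.

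Glial RNA also went with low Nefh. The summed level of 14 markers of satellite glia and Schwann cells was 625 to 2475 CPM in Nefh-high sums (median 1137) and 1151 to 6681 CPM in Nefh-low sums (median 1992). By Gap43 it was 912 to 3688 CPM (median 1829) in Gap43-high and 572 to 3950 CPM (median 1277) in Gap43-low sums. Of the 14 markers 0 were without a read in Nefh-high cells and 1 in Nefh-low cells. Without the 25% of cells richest in these markers, Gap43 in Nefh-high cells was at a log2 change of -1.66 (adjusted p = 0.92, edgeR), Nefh in Gap43-high cells at -0.93 (adjusted p = 0.11, edgeR) and Nefh in Piezo2-high cells at 0.60 (adjusted p = 0.19), while Basp1 in P2rx3-high cells stayed called (2.25, adjusted p = 0.029). The part of depth and of glial RNA in these results was not tested beyond these values.

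Further genes of the axon and of sensory classes, in lists named for this work, gave the following picture. Of 36 tested genes of the axonal skeleton and transport, none was called by edgeR between Nefh-high and Nefh-low cells; 25 had a fitted change above 0 and 11 below (median log2 change 0.30, against 0.09 over all genes tested). Map1b, a microtubule-associated protein, had a log2 change of 0.45 and Kif1b, a vesicle motor, one of 0.56, while the stathmin Stmn4 had -1.32 and Marcksl1, an actin-binding protein of the MARCKS family, -3.43 (adjusted p = 0.44 to 0.58, edgeR; DESeq2 called Stmn4 and Marcksl1). In the Gap43 split 1 of 35 was called (0.294% over all genes), Tmsb4x, an actin monomer-binding peptide, and it was lower.

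Of 14 tested genes of growth and injury response, edgeR called none in the Nefh or the Gap43 split. Of these, 11 were fitted below 0 in Nefh-high cells (median -0.81), against 4674 of 10518 over all genes tested (median 0.09). In Gap43-high cells 10 of the 14 were fitted above 0 (median 0.47), against 5481 of 10554 over all genes tested (median 0.03). DESeq2 called 5 of the 14 as higher and 1 as lower in that split, against 9.89% of all genes in either direction. The adhesion molecules Chl1 and Ncam1 had log2 changes of -4.93 and -1.20 in Nefh-high cells and of 6.27 and 2.46 in Gap43-high cells (adjusted p = 0.080 and 0.057 in the Gap43 split, edgeR; both called by DESeq2 in both splits). Ncam1 was called in the other 2 splits, lower in Piezo2-high and higher in P2rx3-high cells.

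Of 22 tested genes of large myelinated sensory neurons, 17 were fitted above 0 in Nefh-high cells (median 0.61) and none was called by edgeR; over all genes 5844 of 10518 were fitted above 0 (median 0.09). Fxyd7 of this list was below 0, at -0.98 to -0.66 when any 1 experiment was left out. Of 9 tested genes of small unmyelinated neurons 6 were fitted above 0 and 3 below in the same split. Their median was higher, at 1.19, and none was called by edgeR. Fxyd2 (1.87, adjusted p = 0.76, edgeR) and Plxnc1 (1.19, adjusted p = 0.85, edgeR) were above 0. Tac1 was below 0, at -1.98 to -1.34 when any 1 experiment was left out, and was the 1 gene of these 9 that DESeq2 called. Calb1, a calcium buffer, had 0.73, 38.2 and 126 CPM in Nefh-high cells, against 0, 0.41 and 5.49 CPM in Nefh-low cells (log2 change 6.53, SE 1.26; adjusted p = 0.22 in edgeR and 1.2e-11 in DESeq2). Kcna1, a potassium channel of myelinated axons, had a log2 change of 1.02 and was higher in 8 of 8 experiments (adjusted p = 0.47 in edgeR and 0.033 in DESeq2). In the Gap43 split Cntnap2, which clusters that channel beside the node, rose by 1.65 (SE 0.29; adjusted p = 0.042, edgeR; 0.086 to 0.15 without JC04, JC05, JC07, JC08 or JC09, and a log2 change of -0.043 in cells with under 20 CPM of Piezo2, adjusted p = 1.0), and Scn4b, a sodium channel subunit, was called and lower, so 2 members of this list moved apart. Of the 9 genes of small unmyelinated neurons 1 was called in the Gap43 split (0.294% over all genes): Plxnc1, a semaphorin receptor, fell by 2.74 (SE 0.39; adjusted p = 0.017, edgeR).

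Of 7 tested genes on the list of somatosensory neurons 6 were fitted below 0 in Gap43-high cells (median -4.95, against 0.03 over all genes tested). Of 14 tested genes of taste neurons none was called and 11 were fitted above 0 (median 3.66). DESeq2 called 10 of those 14 as higher and 1 as lower, against 9.89% of all genes in either direction. The median of the taste list in Nefh-high cells was -0.38 and that of the somatosensory list 1.57.

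By the size of change, the called genes lowest in Gap43-high cells included Adamts19, Adtrp, Gda (guanine deaminase) and Limd1, with log2 changes of -8.97, -8.44, -7.36 and -6.89 (sums of 0 in some Gap43-high cells set the size of these). The highest included H2-T23 (a class I histocompatibility molecule), Irak3, Sbno2 and Cntnap2, with 8.02, 6.62, 3.84 and 1.65.

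Among single sour taste cells, 52 of 56 had at least 1000 genes. Gap43, Nefm, Prph and Piezo2 were read in 0 of 52, which allows a share of up to 5.77% of cells with a read by a limit of 3 counts, or 6.85% by the exact 95% interval. Basp1 was read in 51 of 52 (98.1%, exact 95% interval 89.7 to 100.0%) at a median of 826 CPM, and Uchl1 likewise in 98.1% at 355 CPM. Stmn3 was read in 78.8%, Tubb3 in 42.3%, Nefh in 13.5%, Stmn2 in 3.85% and Nefl in 1.92% of these cells. Basp1 was thus read in nearly all of these taste cells with no read of Gap43, while in ganglion cells the 2 genes had a mean rho of 0.48. The 2 tissues were prepared with different kits, and no test was made between them.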

How the data were processed

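The authors deposited raw counts of reads per gene symbol for each cell, with no normalization stated; STAR, HTSeq and GRCm38 (mm10) are named per the submitters' processing notes, and versions, settings and counting strand are not given in the sources used here. Of the deposited ganglion lines 25 were symbols turned into dates (0.188% of reads) and were left out; all 454 columns were distinct, and the 6 bulk pools of the taste table were not used. Cells with at least 2000 genes were split within each experiment at the tertiles of the CPM of Nefh, Gap43, Piezo2 or P2rx3. Reads of at least 5 cells were summed per experiment, and high and low sums were fitted with edgeR 4.0.16 (R 4.3.3; quasi-likelihood, TMM, filterByExpr, experiment as a covariate), adjusting over all genes tested by Benjamini-Hochberg, with calls at an adjusted p under 0.05; cells with many reads weigh most in such sums. The covariate pairs high and low cells of the same experiment. DESeq2 1.42.0, other depth minimums, thinning to 50000 reads, a median split, no low-count filter and leaving out each experiment were alternatives. Shares and differences by depth were compared by exact sign-change permutation over experiments (scipy 1.17.1). The fit was tested on simulated data. Where nothing says that experiments are separate animals, p-values measure the spread between experiments, which may be technical. Intervals and limits cover counting error only. The members, lists and tests were chosen with earlier results of these data known. Named genes are the 10 members, Piezo2 and P2rx3, the 5 genes most like Nefh and Gap43 over cells, the 5 largest and smallest called changes of those splits, and up to 4 genes of each of 6 lists by p, of which some are not reported here; Tmsb4x, Scn4b and single calls in other splits were named after their values were seen. Gene spans are from GENCODE M21.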

Additional observations from a re-analysis of the deposited data

Results flagged for a closer look

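Of 62 sets of 8 experiment values checked for a value far from the others, 5 held one; chance alone gives about 1 in 20. JC12 stood apart in mean level, with 985 CPM of Basp1 against 524 to 732 CPM in the other 7 experiments, and with 3713 CPM of P2rx3 against 740 to 1481 CPM. The log2 ratio of Prph in Nefh-high over Nefh-low cells was 0.73 in JC10 and -0.01 to 0.17 in the others. The log2 ratio of Uchl1 in Gap43-high over Gap43-low cells was 0.70 in JC12 and -0.31 to 0.13 in the others. The share of Piezo2-high cells in Nefh-high minus Nefh-low cells was 83.3 percentage points in JC04, which had 6 Nefh-high and 6 Nefh-low cells, and 7.14 to 33.3 in the others; without JC04 the mean difference was 20.8 points (exact permutation, adjusted p = 0.047).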

How the results depend on the processing

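Calls in these sums depended strongly on the setting. No gene was called between Nefh-high and Nefh-low cells, against 1 after thinning to 50000 reads, 409 with DESeq2 and 89 with no low-count filter. Between Gap43-high and Gap43-low cells 31 were called, against 15 with a median split, 1 at a minimum of 4000 genes, 3 without the cells richest in glial RNA, 1 in deeper and 0 in shallower cells, 1044 with DESeq2 and 351 with no filter. Added after the values were seen, fixed levels gave 102, JC04 to JC09 alone 183, and cells with under 20 CPM of Piezo2 gave 1. The 59 calls by Piezo2 became 127 with a median split, 231 after thinning, 24 without glia-rich cells, 1 in deeper and 0 in shallower cells, 386 with fixed levels, 1060 with DESeq2 and 294 with no filter. The 170 by P2rx3 became 108 at 4000 genes, 64 without glia-rich cells, 21 in deeper and 2 in shallower cells, 1240 with DESeq2 and 394 with no filter. Without the replicate block, that is without pairing by experiment, the count by P2rx3 was 107, and Nefh missed the threshold in the Gap43 split (adjusted p = 0.056, edgeR) and the Piezo2 split (0.056). The labels give no replicate numbers. Leaving out 1 experiment gave 0 to 1 calls by Nefh, 1 to 142 by Gap43, 11 to 143 by Piezo2 and 51 to 219 by P2rx3. The lowest and highest counts came without JC09 and without JC10 for Gap43 and without JC05 and without JC10 for Piezo2.

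Differences in shares (percentage points) kept their direction and missed the threshold in smaller sets. At 4000 genes, without glia-rich cells, in deeper and in shallower cells they were -25.1, -13.4, -20.9 and -11.8 for Gap43-high by Nefh and 21.2, 19.7, 12.2 and 14.6 for Piezo2-high by Nefh. They were 28.6, 23.5, 34.4 and 14.5 for P2rx3-high by Gap43 and -36.8, -33.3, -37.5 and -26.1 for P2rx3-high by Piezo2. For Piezo2-high by Gap43 the last 3 sets gave -42.7, -39.7 and -24.2. P2rx3-high by Nefh passed with a median split, at -10.5, and was at 0.29 with a minimum of 1000 genes. Without 1 experiment the ranges were -25.4 to -19.1, 20.8 to 31.6, 27.6 to 40.7, -42.6 to -33.5, -57.7 to -42.8 and, for P2rx3 by Nefh, -9.74 to -1.15. The difference by depth ranged from -0.72 to 0.50 for Gap43, -0.03 to 0.83 for Piezo2 and -1.14 to -0.64 for P2rx3. Cntnap2 by Gap43 turned to -0.043 in cells with under 20 CPM of Piezo2. In taste cells with at least 2000 genes Nefl was read in 0, Stmn3 in 90.9% and Uchl1 in 100%. The cause of these changes was not tested; smaller sets hold fewer cells, and reads that are not unique molecules limit the precision of low sums.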
